A study of Homo sapiens with 4 samples.

Results

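The genes described here are 10 members of the NF-kappa-B pathway: the transcription factor subunits RELA, RELB, REL, NFKB1 and NFKB2, the kinase subunits CHUK, IKBKB and IKBKG, and the inhibitors NFKBIA and TNFAIP3. They were taken by name, and all probes whose RefSeq accession maps to them were used. All 10 were found, each with 1 target of 3 probes, among 17217 named genes on the array. The arrays were hybridised with RNA from HEK293 cells, an immortalised line obtained long ago from human embryonic kidney by adenovirus transformation. The labels give 1 group of 4 biological replicates, 1 array each, of cells kept in serum-containing medium with no treatment. The methods give each replicate its own culture plate and its own extraction. There was therefore no stimulated group, and all values below are of untreated cultures of this 1 line. The activity of the pathway in them was not measured.

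NF-kappa-B is a family of dimers built from 5 related proteins. In resting cells the dimers are held in the cytoplasm by inhibitors of the IkappaB type, of which NFKBIA (IkappaB alpha) is the best known. A stimulus such as tumour necrosis factor activates the IKK complex, in which the kinases CHUK (IKK alpha) and IKBKB (IKK beta) are held together by the scaffold IKBKG (NEMO). IKK phosphorylates the inhibitor, which is then ubiquitinated and destroyed, and the dimer enters the nucleus. A second, slower route runs through the kinase MAP3K14 (NIK) and CHUK and processes NFKB2 to its DNA-binding form, which pairs with RELB. Genes for NFKBIA and for the ubiquitin-editing enzyme TNFAIP3 (A20) are themselves switched on by NF-kappa-B and shut the signal off again.

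HEK293 cells contained message for most of this set. Of the 10 genes 8 were detected by the rule of the study, against 52.7% of all 17217 genes. The rule takes the seminal proteins that the line was thought not to transcribe, adds 2 SD to their mean on an array, and calls a gene detected where it lies above this baseline on average over the arrays. The same 8 genes lay above the baseline on all 4 arrays, as did 45.0% of all genes. The same 8 were called by limma's one-sided test of the distance (adjusted p under 0.05), as were 45.9% of all genes. The genes not detected were RELB and TNFAIP3. The median distance of the 10 genes was 1.61 log2 units, beside 0.26 over all genes. An array of a whole culture cannot tell a low level in every cell from a higher level in few cells.

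**Figure D1:**
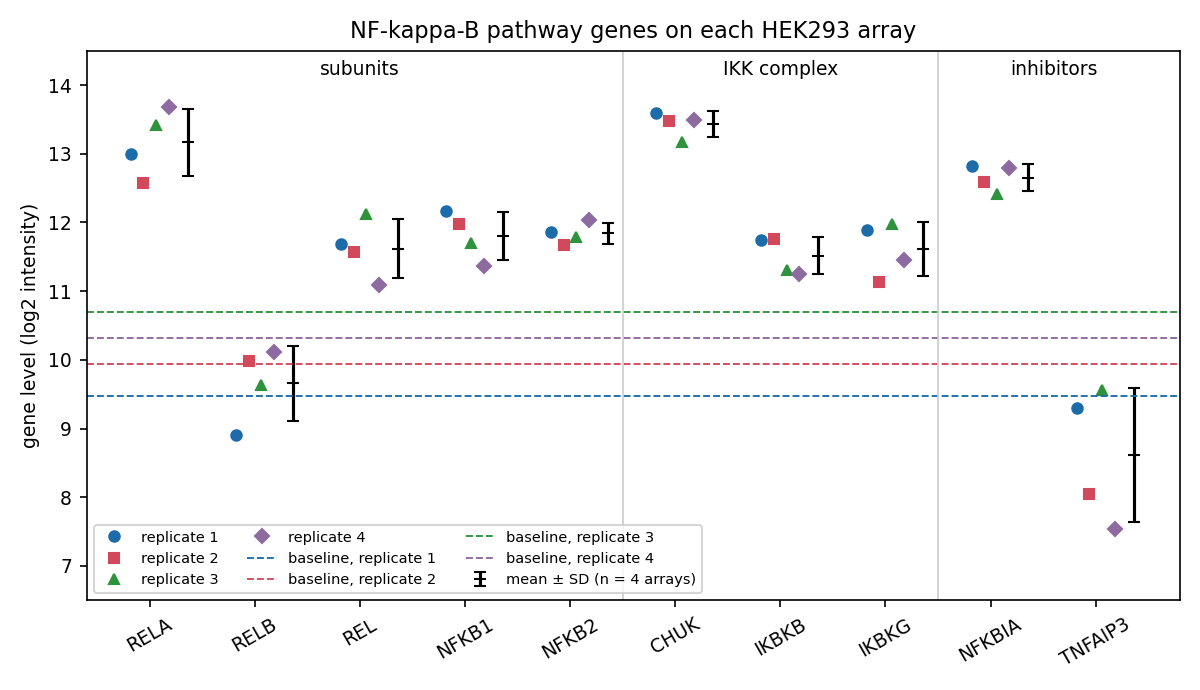
Level of each gene (log2 intensity, vertical axis) on each of the 4 arrays, with the mean and SD over arrays in black and each array's own baseline as a dashed line in the array's colour. All points of 8 genes lie above every baseline, while those of RELB and TNFAIP3 lie near or under them.

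Several of these genes carry binding sequences for NF-kappa-B itself next to their start sites, and the promoters are shown because the set holds both the factor and genes it is known to control. RefSeq promoter windows (GRCh38.p14, 250 bases before to 50 after a start site) were held for 8 of the 10 genes in 15 windows. They were searched on both strands for the kappa-B consensus, which is GGG, a purine, any base, A or T, a pair of pyrimidines, and CC. It occurred in a window of 5 of these 8 genes, namely REL, NFKB1, NFKB2, NFKBIA and TNFAIP3. Over all the RefSeq windows 5.91% of 35116 and 7.09% of 27305 genes held it. RELA, CHUK and IKBKG had no match to these letters in their windows. NFKB2 had 3 windows, with 0, 3 and 2 matches; it is not printed, since the windows with matches lie downstream of its first start site. For the other 4 genes the 120 bases before the start site are printed 5′ to 3′ on the strand of the gene, with the matches in capitals.
REL, chr2:60881454-60881573, plus strand: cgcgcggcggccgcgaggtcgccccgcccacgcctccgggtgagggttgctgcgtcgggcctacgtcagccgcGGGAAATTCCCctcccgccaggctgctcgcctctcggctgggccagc
NFKB1, chr4:102501239-102501358, plus strand: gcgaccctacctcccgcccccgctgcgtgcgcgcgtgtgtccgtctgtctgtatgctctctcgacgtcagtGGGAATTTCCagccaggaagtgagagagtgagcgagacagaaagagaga
NFKBIA, chr14:35404750-35404869, minus strand: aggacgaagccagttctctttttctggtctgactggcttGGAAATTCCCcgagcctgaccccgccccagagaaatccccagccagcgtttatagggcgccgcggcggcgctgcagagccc
TNFAIP3, chr6:137867139-137867258, plus strand: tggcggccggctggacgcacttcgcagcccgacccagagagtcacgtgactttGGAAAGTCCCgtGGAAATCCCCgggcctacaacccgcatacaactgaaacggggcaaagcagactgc
In REL the capitals are a pair of overlapping matches, on opposite strands, that start 47 and 46 bases before the start site. The match in NFKB1 starts 49 bases before it and that in NFKBIA 81 bases before it. TNFAIP3 has separate matches that start 67 and 55 bases before its start site. NFKBIA and TNFAIP3 thus both carried the consensus here, while NFKBIA was detected on the arrays and TNFAIP3 was not.

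Levels are given as log2 intensity and distances as log2 units above an array's baseline, which was 9.47, 9.94, 10.69 and 10.32 for replicates 1 to 4 in turn. RELA encodes p65, the subunit with the transactivation domain in the most common dimer. Its level was 12.99, 12.57, 13.42 and 13.68 on replicates 1 to 4, and its distance was 3.06 ± 0.45 log2 units (SD, n = 4; limma adjusted p = 9.2e-18). RELA was far above the baseline on every array, and its level ranked between the 74.7 and 89.4 percentile of all genes on an array.

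NFKB1 encodes p105 and p50, the usual partner of p65. Its level was 12.17, 11.98, 11.70 and 11.36 on replicates 1 to 4, with a distance of 1.70 ± 0.82 log2 units (SD, n = 4; limma adjusted p = 2.0e-06). It came closest to the baseline on replicates 3 and 4, at 1.01 and 1.04. NFKB2, which encodes p100 and p52 of the slower route, had levels of 11.86, 11.67, 11.79 and 12.04 and a distance of 1.74 ± 0.53 (SD, n = 4; limma adjusted p = 1.2e-06). Its level was the steadiest of the 10, with an SD of 0.15 log2 units. REL encodes c-Rel, a subunit best known from lymphocytes. Its level was 11.69, 11.58, 12.13 and 11.09 and its distance 1.52 ± 0.60 (SD, n = 4; limma adjusted p = 2.2e-05). REL was thus above the baseline on all arrays, closest to it on replicate 4 at 0.76.

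RELB, the partner of p52, stood apart from the other subunits. Its level was 8.90, 9.98, 9.63 and 10.12 on replicates 1 to 4. The distance was -0.57, 0.05, -1.06 and -0.20, a mean of -0.45 ± 0.48 (SD, n = 4), so that only replicate 2 reached the baseline. The 3 probes of RELB disagreed. The first lay above the baseline on replicates 2 and 4, by 1.46 and 1.06, and below it on replicates 1 and 3, by -0.80 and -0.07. The second and the third probes lay below it on all 4 arrays, at mean distances of -1.36 and -2.42. With the median of the log2 probe values the distance of RELB was -1.29. The call depended on the control genes and on the cutoff set from them. RELB stood at 1.88 (limma adjusted p = 2.3e-08) without SPATA5 and SPATA13, the pair of controls with the highest levels. With all matched controls it stood at 0.87 (limma adjusted p = 0.0065) with 1 SD. It stood at 1.26 (limma adjusted p = 0.00015) with the median and 2 scaled MAD. Of all genes 74.0%, 64.3% and 67.7% were detected at these settings in turn.

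The IKK complex was present as message for all 3 of its subunits. CHUK had levels of 13.60, 13.48, 13.16 and 13.49 on replicates 1 to 4 and the largest mean distance of the 10 genes, 3.33 ± 0.69 log2 units (SD, n = 4; limma adjusted p = 1.0e-20). On each array CHUK ranked between the 83.4 and 87.5 percentile of all genes. Its kinase partner IKBKB had levels of 11.74, 11.76, 11.31 and 11.25, a distance of 1.41 ± 0.77 (SD, n = 4; limma adjusted p = 7.9e-05) and ranks between the 59.3 and 64.2 percentile. IKBKB came closest to the baseline on replicate 3, at 0.62. The scaffold IKBKG had levels of 11.88, 11.14, 11.97 and 11.46 and a distance of 1.51 ± 0.61 (SD, n = 4; limma adjusted p = 2.4e-05). On replicate 1 it stood 2.41 above the baseline, and 1.13 to 1.28 above it elsewhere. IKBKG has a partial copy, IKBKGP1, on the same chromosome, and whether its probes also bind transcripts of that copy was not tested.

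The inhibitors differed. NFKBIA had levels of 12.83, 12.58, 12.41 and 12.79 on replicates 1 to 4 and a distance of 2.55 ± 0.67 log2 units (SD, n = 4; limma adjusted p = 9.3e-13). Its levels stayed within an SD of 0.19 log2 units, between the 73.8 and 79.3 percentile of all genes. TNFAIP3 had levels of 9.30, 8.04, 9.56 and 7.54 and distances of -0.17, -1.89, -1.13 and -2.79, a mean of -1.49 ± 1.11 (SD, n = 4). It was below the baseline on all 4 arrays, and the SD of its level, 0.98 log2 units, was the highest of the 10. The level was higher on replicates 1 and 3 than on replicates 2 and 4. Single probes of TNFAIP3 passed the baseline only on replicate 1, the second by 0.33 and the third by 0.07. With olfactory receptor genes as controls the distance was 0.59 (limma adjusted p = 0.0489), and without SPATA5 and SPATA13 it was 0.83 (limma adjusted p = 0.0063).

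The pattern of levels on replicates 1 and 3 against 2 and 4 was looked for in all 10 genes. REL, IKBKG and TNFAIP3 had higher levels on both of replicates 1 and 3 than on either of replicates 2 and 4, as did 22.2% of all genes. RELB had the opposite pattern, as did 18.5% of all genes. The labels do not say what these arrays share. On replicates 1 and 3 alone and on replicates 2 and 4 alone the same 8 genes had a mean distance above 0. TNFAIP3 stood at -0.65 on the first pair and at -2.34 on the second, and RELB at -0.81 and -0.08.

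**Figure D2:**
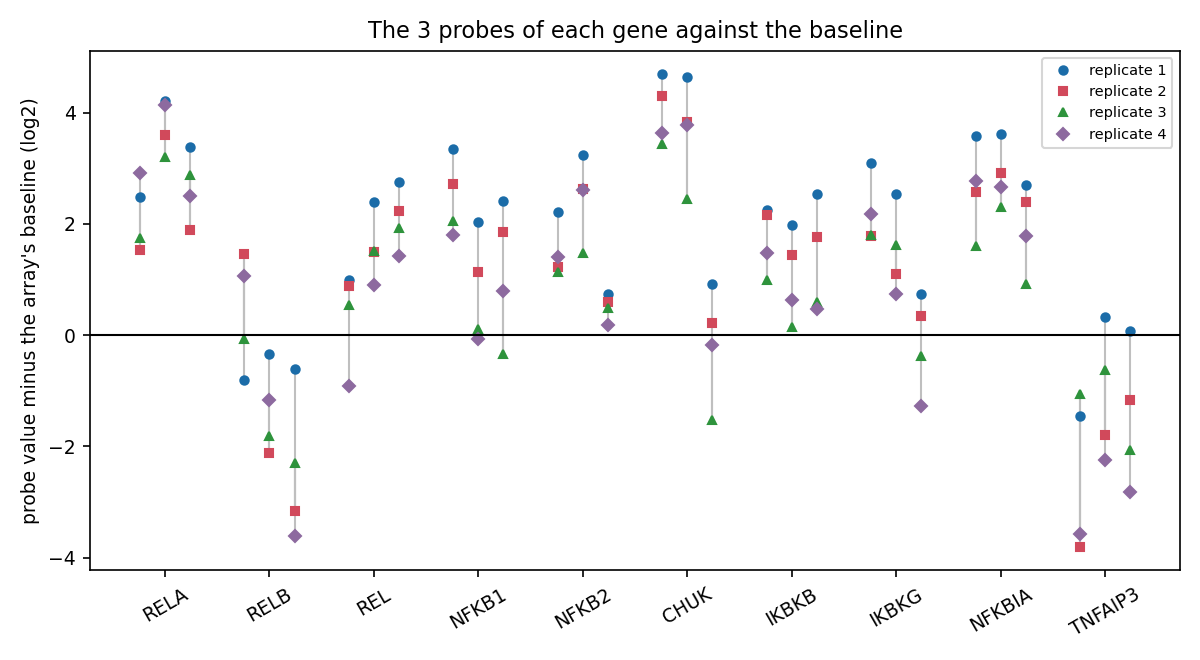
Each probe of the 10 genes (3 columns of points per gene) as its log2 value minus the baseline of the array, with the 4 arrays in colour and the baseline at 0. RELA, NFKB2, IKBKB and NFKBIA have every point above 0, while the last probe of CHUK and of IKBKG and most points of RELB and TNFAIP3 lie around or below it.

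Single probes were then set against the baseline, since each gene's value rests on 3 of them. Of 120 probe values, 93 lay above the baseline of their array. For RELA, NFKB2, IKBKB and NFKBIA all 12 values did. REL had 11 of 12, and CHUK, IKBKG and NFKB1 had 10 of 12. RELB and TNFAIP3 each had 2 of 12. The share of probe values above the baseline over all probes of the arrays was not counted, so these counts describe the members only. The widest disagreement was in CHUK, whose probes had mean distances of 4.01, 3.67 and -0.14 log2 units, a range of 4.15. The third probe of IKBKG also lay at -0.14, with the others at 2.21 and 1.50. The narrowest range was 0.67 log2 units, in IKBKB. With the mean of the log2 probe values in place of the log2 of their mean, CHUK moved from 3.33 to 2.85 and RELA stood at 3.21, so that these genes changed places.

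Ordered by mean distance, the genes ran CHUK, RELA, NFKBIA, NFKB2, NFKB1, REL, IKBKG, IKBKB, RELB and TNFAIP3. Every probe binds its target with its own affinity, so this is an order of array values and not of transcripts per cell. The neighbours CHUK and RELA differed by 0.27 ± 0.58 log2 units (SD, n = 4), within their spread. The 5 genes from NFKB2 to IKBKB were also not separated, with differences of 0.01 to 0.18 between neighbours and SDs of 0.36 to 0.53. A step larger than its spread, in the same direction on all 4 arrays, lay in 2 places. NFKBIA stood 0.81 ± 0.16 log2 units above NFKB2 (SD, n = 4), and IKBKB 1.86 ± 0.71 above RELB (SD, n = 4). RELB and TNFAIP3 differed by 1.05 ± 1.44 (SD, n = 4) and changed order on replicate 1. On each array the lowest of the 8 detected genes was above the higher of RELB and TNFAIP3, by 0.97 to 2.39 log2 units. These groups were formed from the same distances, so the gap describes them and is no separate evidence of a separation.

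**Figure D3:**
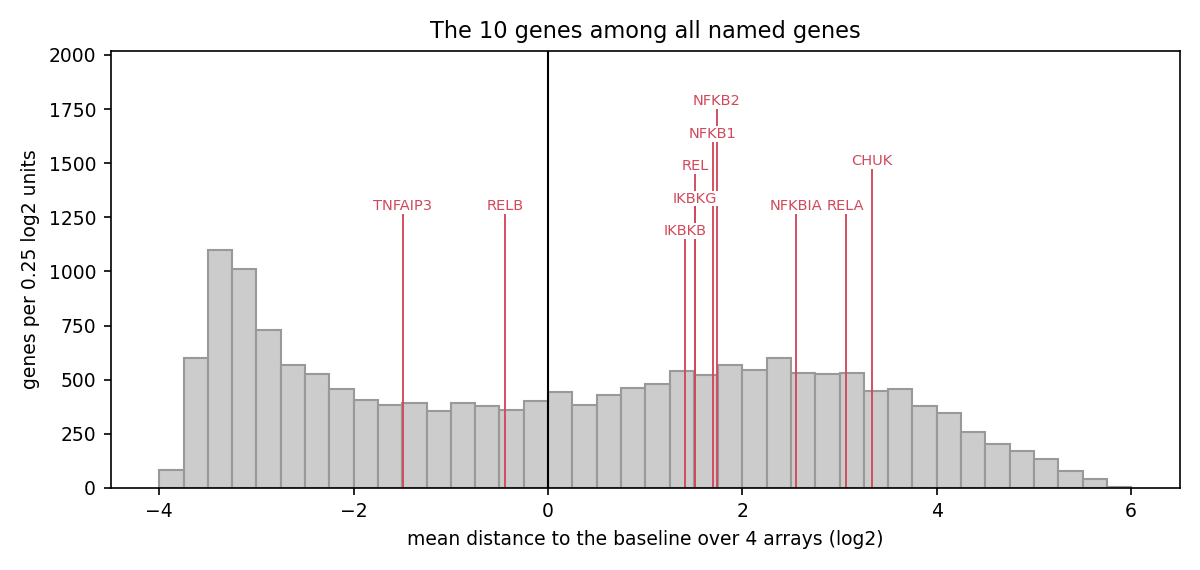
Number of named genes (vertical axis, per 0.25 log2 units) by distance above the baseline (log2, mean of the 4 arrays, horizontal axis), with the 10 genes as red lines whose height has no meaning. The 8 detected genes lie between 1.41 and 3.33, and TNFAIP3 and RELB lie at -1.49 and -0.45.

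Other genes of the pathway were described by role. Of 101 genes in 9 lists 47 were detected (46.5%) and 37 were called by limma, beside the shares of 52.7% and 45.9% over all genes. The other members of the IkappaB family gave 1 of 5. NFKBIB (IkappaB beta) stood at 1.60 ± 0.63 log2 units (SD, n = 4), above the baseline on all 4 arrays. NFKBIE stood at -2.39, NFKBIZ at -2.66, NFKBID at -1.80 and BCL3 at -1.49, all of them below it on all 4 arrays.

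Most ligands and receptors of the pathway lay below the baseline, and their counts depended on the control genes. Of 9 ligands 1 had a mean distance above 0 and none was called by either limma fit; at an unadjusted p under 0.05 the count was 0 as well. That ligand was TNFSF12 (TWEAK), at 0.21 ± 0.46 (SD, n = 4; limma adjusted p = 0.542), above the baseline on 3 of 4 arrays. TNF stood at -3.02, IL1B at -3.08, IL1A at -2.29, LTB at -1.56 and LTA at -0.16. Of 14 receptors 3 were detected, and the tumour necrosis factor receptor TNFRSF1A was called, at 1.86 ± 0.61 (SD, n = 4). With a baseline of 3 SD it stood at 0.54 and was not called (limma adjusted p = 0.241). TNFRSF11A (RANK) stood at 0.63 ± 0.16 and TNFRSF12A, the receptor of TWEAK, at 0.47 ± 0.43 (SD, n = 4 for each), above the baseline on all 4 arrays but not called by limma (adjusted p = 0.080 and 0.185). The other 11, among them TNFRSF1B, IL1R1, CD40 and the Toll-like receptors TLR2, TLR3, TLR4 and TLR5, had mean distances from -3.52 to -0.98. The value of -0.98 was that of LTBR, named after its value was seen. LTBR stood at 0.53 and 0.08 on replicates 1 and 3 and at -1.50 and -3.04 on replicates 2 and 4. Those Toll-like receptors ran from -3.41 to -2.08. With olfactory receptor genes as controls 3 of 9 ligands and 8 of 14 receptors were detected, without SPATA5 and SPATA13 5 and 9 were, and with 3 SD 0 and 1 were. Of all genes 71.4%, 74.0% and 39.1% were detected at these settings in turn.

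Adaptors and upstream kinases gave 14 of 17 detected and 10 called. The largest distances were those of the interleukin-1 receptor kinase IRAK1 at 4.45 ± 0.69, MAP3K7 (TAK1), the kinase that activates IKK, at 3.41 ± 0.59, RIPK1 at 3.11 ± 0.44 and TAB2, a ubiquitin-binding partner of TAK1, at 2.96 ± 0.88 (SD, n = 4 for each). TRADD, the adaptor of TNFRSF1A, stood at 0.05 and TRAF3 at 0.33, both within 1 standard error of the baseline. The 3 genes with a mean distance below 0 were named after their values were seen. They were BIRC3 at -0.75, MAP3K14, the kinase of the slower route, at -0.76, and MYD88, the adaptor of Toll-like and interleukin-1 receptors, at -1.26 ± 2.10 (SD, n = 4). MYD88 had levels of 10.48 and 10.73 on replicates 1 and 3 and of 7.09 and 7.08 on replicates 2 and 4. Its mean therefore stands for none of the arrays.

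Of 5 IKK-related kinases and their adaptors 4 were detected and 3 called. TBK1 stood at 2.56 ± 0.77, TBKBP1 at 1.07 ± 0.47 and TANK at 0.85 ± 0.46 (SD, n = 4 for each), AZI2 at 0.37 and IKBKE at -1.29. The call of TANK was lost without replicate 1 (limma adjusted p = 0.0512) or replicate 2 (limma adjusted p = 0.0757), and TANK fell to -0.50 with the median of the log2 probe values. Of 6 genes for the complexes of CARD proteins with BCL10 and MALT1, which link antigen receptors to IKK, 2 were detected. BCL10 stood at 2.00 ± 0.63 (SD, n = 4) and was called, and MALT1 stood at 0.17 ± 0.57 (SD, n = 4; limma adjusted p = 0.609). CARD9, CARD10 and CARD14 stood at -3.00, -1.79 and -2.90.

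All 9 genes of the ubiquitin machinery were detected and called. The linear ubiquitin chain complex was represented by RBCK1 at 3.12 ± 0.39, SHARPIN at 2.13 ± 0.39 and RNF31 at 0.87 ± 1.27 (SD, n = 4 for each). RNF31 lay below the baseline on replicate 3 and was no longer called without replicate 1 (0.56, limma adjusted p = 0.150), without replicate 2 (0.71, adjusted p = 0.117) or without replicate 4 (0.73, adjusted p = 0.110). The conjugating enzymes UBE2V1 and UBE2N stood at 4.83 and 2.16. CUL1 at 3.98, SKP1 at 3.13, BTRC at 1.88 and FBXW11 at 1.52 encode subunits of the ligases that mark phosphorylated IkappaB.

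Negative regulators gave 6 of 12 detected, and all 6 were called. TAX1BP1 at 4.02 ± 0.66, TNIP1 at 3.77 ± 0.40, OTULIN at 1.72 ± 0.53 and the deubiquitinase CYLD at 1.35 ± 0.47 had the largest distances (SD, n = 4 for each). TAX1BP1, TNIP1 and TNIP2 are proteins known to bind TNFAIP3, which itself was not detected. TNIP2 stood at 1.35 ± 0.75 (SD, n = 4), named after its value was seen. Other genes of the same list went the other way. TNIP3 stood at -3.40, RNF11 at -2.16 and ITCH at -0.36, none of them detected, and these were also named after their values were seen.

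Of 24 genes known to be induced by NF-kappa-B 7 were detected and 6 were called, or 5 with a robust, mean-dependent prior in limma, under which CD83 was lost (adjusted p = 0.066). With olfactory receptor genes as controls 14 were detected, and without SPATA5 and SPATA13 15 were, beside 71.4% and 74.0% of all genes. None of the 8 chemokine genes was detected, with mean distances from -3.50 for CCL20 to -1.15 for CCL2. CXCL8 stood at -1.97, IL6 at -3.33, the adhesion molecules ICAM1 at -0.65 and VCAM1 at -3.59, and PTGS2 at -1.80. Among the genes above the baseline on every array the largest distances were those of the mitochondrial superoxide dismutase SOD2 at 3.46 ± 0.44, GADD45B at 3.33 ± 0.46, IER3 at 2.11 ± 0.54 and the caspase-8 regulator CFLAR at 1.47 ± 0.55 (SD, n = 4 for each). BCL2L1, named after its value was seen, had a distance of 1.59 ± 1.30 (SD, n = 4), with -0.28 on replicate 3, and fell to 0.57 (limma adjusted p = 0.411) with the median of the log2 probe values. CD83, likewise, was at 0.75 ± 0.74 (SD, n = 4; limma adjusted p = 0.037), and its call was lost without replicate 1 (0.67, adjusted p = 0.066), replicate 2 (0.57, adjusted p = 0.206) or replicate 4 (0.64, adjusted p = 0.164). The median distance of the 24 genes was -1.76 log2 units, beside 0.26 over all genes.

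**Figure D4:**
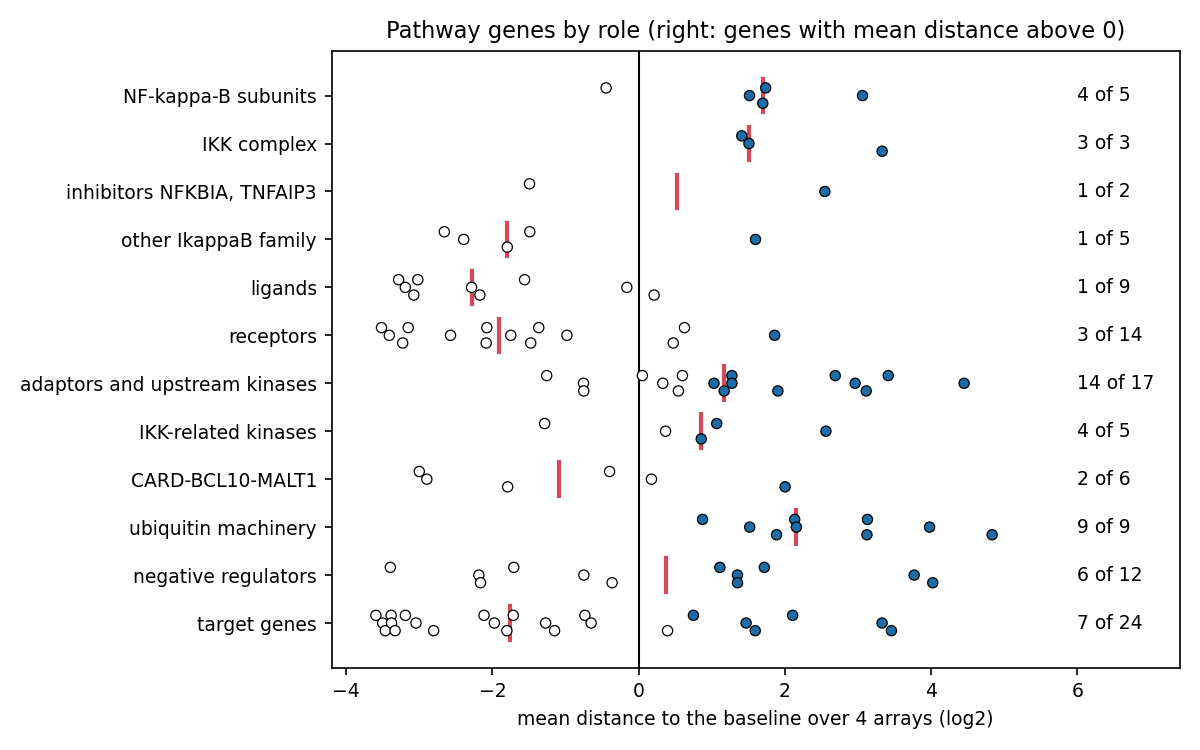
Mean distance to the baseline (log2, horizontal axis) of each pathway gene, by role, with the median of a list as a red bar and the count of genes above 0 at the right. Filled points passed limma's test (adjusted p under 0.05), and the ubiquitin machinery lies wholly above 0 while most ligands, receptors and target genes lie below it.

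Markers of other cells were read beside these results. None of 11 blood cell markers was detected, with mean distances from -3.56 to -0.75, so that the defining markers PTPRC, CD3E and SPI1 lay at -3.56 to -2.59 where REL was detected. All 10 widely used reference genes were detected, from 3.17 to 5.55. Of 11 kidney lineage markers 2 were detected, and PAX2, PAX8 and UMOD were not, while all 4 neurofilament genes were, with NEFM on opposite sides of the baseline on replicates 1 and 3 and on replicates 2 and 4.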

How the data were processed

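Total RNA of 4 HEK293 cultures was copied with an oligo(dT) primer, labelled with Cy3 and hybridised to NimbleGen HG18 arrays with 60-base probes. The authors deposited log2 intensities, 1 per probe and array. The submitters' processing notes name RMA without a role, and the study's methods state no background correction. Sorted values of replicates 1 and 2 lay within 0.01 at 99.97% of ranks, and of replicates 3 and 4 at 99.99%, the form of quantile normalization within these pairs. No raw intensities were used, so the number of arrays limits the precision. Accessions were matched without versions to RefSeq (GRCh38.p14), which named 19125 of 24000 targets. For each target the probe values were averaged on the linear scale and logged again, and targets of a gene were averaged on the log2 scale. Of 11 control genes 10 were matched. The distance to the baseline was tested across all 17217 genes with limma 3.58 in R 4.3, one-sided, with Benjamini-Hochberg adjustment. The fitted standard error, 0.351, was shared by all genes, an array's baseline moves all its genes together, and an exact test by sign flips with 4 arrays gives no p under 0.0625, so the limma values measure these 4 arrays only. The code was tested on simulated data with a common spread for all genes and independent errors. Such data cannot show whether limma's p-values hold for these arrays. Members and lists were chosen with earlier results of these data known. All 10 members are named. In other lists of 11 or fewer genes any gene may be named, and in longer lists the 4 highest of the genes that passed it on every array, plus those within 1 standard error of it. Any other gene named from a longer list was chosen after their values were seen. Some single genes of these lists are not reported here.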

Additional observations from a re-analysis of the deposited data

Results flagged for a closer look

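In each of 111 pathway genes, members included, the array farthest from the others was examined by the gap to its neighbour as a share of the range over the 4 arrays. In 5 genes that share was above Dixon's 95% critical value for 4 samples, and chance alone marks about 1 in 20. The scaffold IKBKG had a ratio of 0.883, with a distance of 2.41 on replicate 1 and lower, closely spaced distances on the other arrays. TNFAIP2 had 0.903, with 1.97 on replicate 1 and -0.21 to -0.00 on the others, so that its mean of 0.39 rests on that array. CXCL1 had 0.918 and TAB1 0.870, both lowest on replicate 2, and TLR5 had 0.867, lowest on replicate 3. In the log2 levels before the baseline was subtracted these ratios were 0.382 for IKBKG, 0.448 for TNFAIP2, 0.397 for CXCL1, 0.211 for TAB1 and 0.308 for TLR5, all under the critical value.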

How the results depend on the processing

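The number of members detected was 8 under every alternative that left the controls as the study chose them at 2 or 3 SD, including each replicate left out, the quantile normalization of all 4 arrays together and each of the pairs of arrays taken alone. Pairs of arrays were chosen after seeing the data. The number of members was 9 with 1 SD and 10 with olfactory receptor genes, without SPATA5 and SPATA13 or with the median and 2 scaled MAD. The share of all genes detected was 64.3% with 1 SD and 71.4% with olfactory receptor genes. It was 74.0% without SPATA5 and SPATA13 and 67.7% with the median and 2 scaled MAD. The mean baseline ran from 7.78 log2 units without SPATA5 and SPATA13 to 11.42 with 3 SD, and the share of all genes detected from 74.0% to 39.1%. With 3 SD limma called 3 members, CHUK, RELA and NFKBIA, and the calls of NFKBIB, TNFRSF1A, TRAF5, BCL10, SHARPIN, BTRC, FBXW11, CYLD, OTULIN, TNIP2, BCL2L1, CFLAR and IER3 were lost at distances that stayed above 0. The share of all genes that limma called with 3 SD was not counted. The number of pathway genes detected was 28 with 3 SD, 72 with olfactory receptor genes and 78 without SPATA5 and SPATA13. Among lists, 3 SD left 6 of 17 adaptors and upstream kinases, 1 of 5 IKK-related genes and 1 of 6 CARD-complex genes, while the set without SPATA5 and SPATA13 gave 3 of 5 other IkappaB genes, 4 of 6 CARD-complex genes and 11 of 12 negative regulators. The members kept their place in the order in 5 of 10 cases with the mean of the log2 probe values, 3 with the median of the log2 probe values, 5 on replicates 1 and 2, 6 on replicates 3 and 4 and 5 on replicates 1 and 3. With 3 SD the called genes TRAF2 (-0.29), TRAF6 (-0.044), TAB1 (-0.043), TAB3 (-0.15), TANK (-0.46), TBKBP1 (-0.25), RNF31 (-0.44), COMMD1 (-0.21) and CD83 (-0.57) fell below the baseline, and TANK did at -0.50 with the median of the log2 probe values. The raised baseline is the cause for the first 9 by construction, and for the last the cause was not tested. With a mean-dependent, robust prior limma also called 8 members.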
